A study of Oryza sativa with 4 samples.

Results

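The rice genes for MCM2 to MCM7, the subunits of the replicative DNA helicase, were followed in the RNA-seq of WT and mre11 seedlings. They were taken as the gene models to which the authors' annotation assigned one of 6 KEGG orthology identifiers, namely K02540 (MCM2), K02541 (MCM3), K02212 (MCM4), K02209 (MCM5), K02542 (MCM6) and K02210 (MCM7). The rule itself uses no expression value, but the members were chosen with earlier results of these data known. It gave 7 of the 55986 gene models. Each identifier had 1 locus except K02541, which was assigned to 2 loci. All plants were Oryza sativa japonica, with the cultivar Dongjin as WT. The mre11 plants carried a T-DNA insertion in an intron of OsMre11, and came from a mutant library as a single insertion line, in which the study identified homozygous plants by PCR. Seedlings were 7 days old, without a treatment in the labels. Each genotype had 2 samples, and each sample was made from 3 plants. The effect of the insertion and any other difference between this line and the WT plants cannot be told apart.

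MCM2 to MCM7 form a ring that is loaded around DNA at replication origins before S phase, by the origin recognition complex (ORC) with CDC6 and CDT1. The loaded ring is inactive until CDC45 and the GINS complex join it, after which it unwinds the DNA ahead of the replicative polymerases. In plants, as in animals and yeast, the MCM genes are expressed mainly in dividing cells, which in a seedling lie in the shoot and root meristems and in young leaves. OsMre11 is a nuclease that acts with Rad50 and Nbs1 on DNA double-strand breaks. The comparison of the 2 genotypes asks how the transcripts of the helicase genes differ in seedlings with the mre11 insertion. The study also measured MCM3, MCM6 and MCM7 by qRT-PCR, which was not analysed here.

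The 6 subunits were represented by 6 long loci and the second K02541 locus was short. By their identifiers, MCM2 (LOC_Os11g29380) lies on chromosome 11, MCM4 (LOC_Os01g36390) on chromosome 1, MCM5 (LOC_Os02g55410) on chromosome 2, MCM7 (LOC_Os12g37400) on chromosome 12, and MCM6 (LOC_Os05g14590) and both MCM3 loci (LOC_Os05g39850 and LOC_Os05g08100) on chromosome 5. The listed length was 5968 bp for MCM2, 6493 bp for MCM6 and 4351 bp for MCM5, the shortest of the 6. LOC_Os05g08100 was listed with 1402 bp, against 5004 bp for LOC_Os05g39850. The GO term of the MCM complex was held by 6 gene models in the whole annotation, which were the 6 long loci. LOC_Os05g08100 lacked this term and those for replication initiation and DNA helicase activity, and its 3 GO terms were DNA replication, DNA binding and ATP binding. In RefSeq (assembly ASM3414082v1), 6 genes are named OsMCM2 to OsMCM7 and lie on the same chromosomes, with OsMCM3 given once, at 4971 bp. None (0) of the locus identifiers is in that table, so that the loci were not joined to it. LOC_Os05g39850 is called the long MCM3 locus below and LOC_Os05g08100 the short one. Which of them the MCM3 primers of the study amplify was not analysed here.

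Counts on genes summed to between 12753324 and 19004825 per library, and both mre11 libraries were deeper than both WT libraries. Counts are therefore given below with CPM, the count relative to a common library size after TMM scaling, which adjusts for differences in depth and composition. The targeted gene checks the labels, and OsMre11 fell from 25.7 and 30.0 CPM in WT to 6.38 and 6.71 CPM in mre11, a log2 fold change of -2.09 (SE 0.191, adjusted p = 0.00141). Whether the samples of a genotype were grown separately is not given in the sources used here. The p-values come from edgeR's quasi-likelihood test on the counts with Benjamini-Hochberg adjustment over 24470 tested genes, and measure only the spread between these 4 libraries. A gene was called when its adjusted p was under 0.05 and the difference was at least 2-fold.

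MCM3 (long locus), MCM4, MCM5, MCM6 and MCM7 rose in mre11 by 3.02-fold to 4.34-fold, MCM2 rose by 1.80-fold, and the short MCM3 locus did not pass the test. Thus 5 of the 7 loci were called higher and 0 lower, where 12.0% of all tested genes were called higher and 9.31% lower. At any fold, 6 loci had an adjusted p under 0.05 and were higher and 0 were lower, against 18.8% and 18.3% of all tested genes. The same 6 loci had both mre11 libraries above both WT libraries in CPM, which 37.5% of the tested genes showed. The median log2 fold change was 1.63 over the 7 loci and 1.68 over the 6 long loci, beside 0.03 over all tested genes. In whole seedlings, a larger share of dividing cells and more RNA per cell cannot be told apart.

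**Figure D1:**
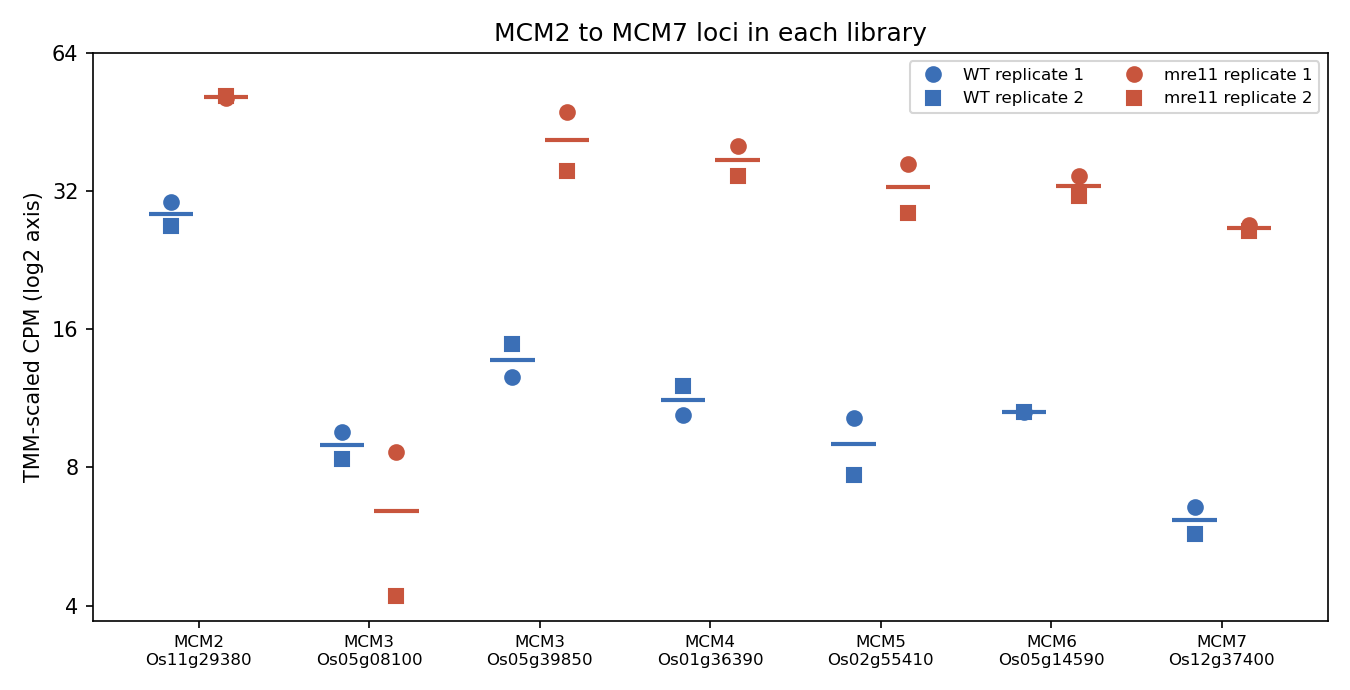
Level of each MCM2 to MCM7 locus in the 4 libraries, as TMM-scaled CPM on a log2 axis, with WT in blue, mre11 in red, replicates as separate symbols and the genotype mean as a bar. Both mre11 libraries lie above both WT libraries at 6 loci, whereas at the short MCM3 locus mre11 replicate 1 lies between the WT libraries.

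MCM4, MCM6 and MCM7 form a subcomplex that shows helicase activity by itself when purified from human cells. MCM7 had 78 and 90 counts in WT replicates 1 and 2 and 559 and 461 counts in mre11 replicates 1 and 2. In CPM these were 6.55 and 5.73 against 27.0 and 26.2, so that the lower mre11 library stood 4.0-fold above the higher WT library. MCM7 had the largest fold change of the 7 loci, with 2.12 on the log2 scale (SE 0.190, 95% interval 1.66 to 2.57, adjusted p = 0.00137). It was not extreme among all genes, since 982 tested genes (4.01%) had a larger log2 fold change. MCM4 had 124 and 189 counts in WT and 832 and 609 counts in mre11, which were 10.4, 12.0, 40.2 and 34.6 CPM. The genotypes were well separated at this locus, as the lower mre11 library was 2.88-fold above the higher WT library. The log2 fold change of MCM4 was 1.73 (SE 0.180, 95% interval 1.30 to 2.17, adjusted p = 0.00172). MCM6 had 126 and 166 counts in WT and 714 and 549 counts in mre11. The WT libraries were nearly equal for MCM6, at 10.6 CPM each, with 34.5 and 31.2 CPM in mre11. Its log2 fold change was 1.63 (SE 0.170, 95% interval 1.23 to 2.04, adjusted p = 0.00172).

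MCM3 and MCM5 sit next to each other in the ring, and MCM5 forms with MCM2 the gate through which DNA enters it in yeast. The long MCM3 locus had 150 and 233 counts in WT and 985 and 622 counts in mre11, or 12.6, 14.8, 47.6 and 35.3 CPM. The mre11 libraries differed most from each other at this locus among the 6, by 1.35-fold, yet the lower of them was 2.38-fold above the higher WT library. Its log2 fold change was 1.59 (SE 0.207, 95% interval 1.10 to 2.09, adjusted p = 0.00302). MCM5 had 122 and 121 counts in WT and 760 and 504 counts in mre11. In CPM these were 10.2 and 7.70 against 36.7 and 28.6, with the lower mre11 library 2.79-fold above the higher WT library. The log2 fold change of MCM5 was 1.87 (SE 0.229, 95% interval 1.32 to 2.42, adjusted p = 0.00260).

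MCM2 differed least of the 6 long loci. Besides its part in the ring, the MCM2 protein binds histones in animals and yeast, and the annotation of the rice locus also lists terms for regulation of root meristem growth, cell proliferation and embryo development. It had 360 and 423 counts in WT and 1057 and 906 counts in mre11, the highest counts of the 7 loci in every library. In CPM, MCM2 stood at 28.6 ± 2.35 (SD, n = 2) in WT and 51.3 ± 0.306 (SD, n = 2) in mre11. The libraries did not overlap, since the lower mre11 library was 1.69-fold above the higher WT library. Its log2 fold change was 0.84 (SE 0.142, 95% interval 0.50 to 1.19, adjusted p = 0.00658), which is past the test but under 2-fold, and 19.4% of the tested genes had a larger one. Scaled by library size alone, MCM2 reached 1.01 and was called, and without WT replicate 2 it had a log2 fold change of 0.75 and an adjusted p of 0.0621.

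The short MCM3 locus did not follow the others. It had 114 and 131 counts in WT and 179 and 74 counts in mre11, or 9.58, 8.34, 8.65 and 4.20 CPM. The mre11 libraries lay 2.06-fold apart, with replicate 1 between the WT libraries and replicate 2 below them. The log2 fold change was -0.47 (SE 0.370, 95% interval -1.36 to 0.42, adjusted p = 0.349). It rested on single libraries, at -1.08 (adjusted p = 0.0458, called lower) without mre11 replicate 1 and at -0.0540 (adjusted p = 0.908) without mre11 replicate 2. Both K02541 loci encode related sequences, and whether reads were shared between them was not tested.

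**Figure D2:**
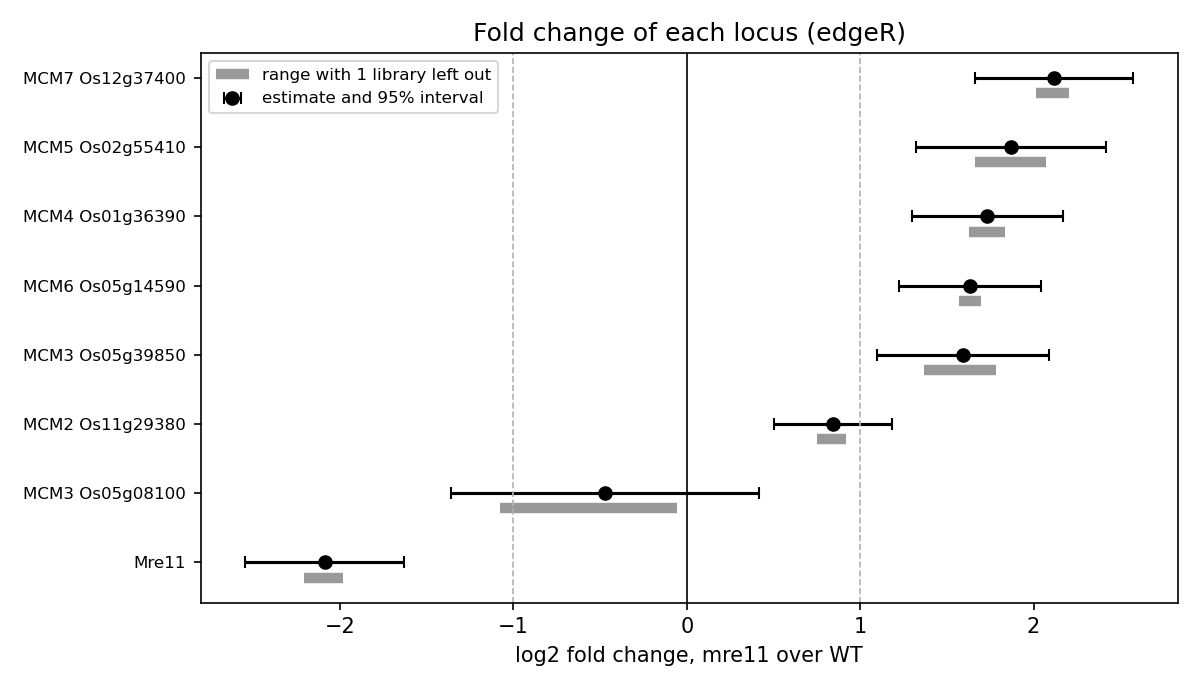
Log2 fold change of each locus and of OsMre11, mre11 over WT, from edgeR, with points for the estimate, thin bars for the 95% interval and grey bars for the range when each library was left out in turn. Dashed lines mark a 2-fold difference. The intervals of MCM7, MCM5, MCM4, MCM6 and the long MCM3 locus lie wholly above 2-fold higher, that of MCM2 spans it, and that of the short MCM3 locus includes 0.

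Within each library, the 2 MCM3 loci shifted against each other. This is a relative measure, which moves with the rise of the long locus even where the short locus is unchanged. The short locus took 43.2% of the counts of both loci in WT replicate 1 (Wilson 95% interval 37.3% to 49.2%) and 36.0% in WT replicate 2 (31.2% to 41.0%). In mre11 its share was 15.4% in replicate 1 (13.4% to 17.6%) and 10.6% in replicate 2 (8.55% to 13.1%). These intervals cover counting error only, and those of the mre11 libraries lie below both of the WT libraries. On the log2 scale the ratio of short to long counts averaged -0.61 in WT and -2.77 in mre11, a difference of -2.15. An exact permutation test of the 4 libraries (two-sided) gave p = 0.333, the smallest value that 2 against 2 allows. The RPKM of the 2 loci, which compares genes per length, was 9.04 and 8.05 for the short and 4.35 and 5.24 for the long locus in WT. In mre11 the order was turned, with 9.52 and 4.36 RPKM for the short and 19.19 and 13.41 RPKM for the long locus.

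Per length, the 6 long loci stood at unequal levels in WT and closer together in mre11. In WT the mean RPKM was 8.38 for MCM2, 4.79 for the long MCM3 locus, 3.69 for MCM4, 3.36 for MCM6, 2.41 for MCM5 and 1.66 for MCM7. Both WT libraries gave this order, and of neighbours in it only MCM4 and MCM6 had ranges that overlapped. In mre11 the means were 16.85 for MCM2, 16.30 for MCM3, 13.77 for MCM4, 11.69 for MCM6, 9.87 for MCM5 and 8.04 for MCM7. The order of the means was the same, but the ranges of all neighbours overlapped, and all 6 loci had a higher RPKM in replicate 1. Within each mre11 library the order was also the same, except that MCM3 was above MCM2 in replicate 1. The highest of the 6 loci stood 5.02-fold and 5.12-fold above the lowest in the WT libraries, and 2.28-fold and 2.14-fold in the mre11 libraries.

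As a share of the summed RPKM of the 6 loci, MCM2 made up 36.1% and 32.9% in WT and 20.6% and 23.8% in mre11. The share of MCM7 was 7.20% and 6.43% in WT and 9.99% and 11.1% in mre11. These are relative shares, and MCM2 itself was higher in mre11. The RPKM sum was 24.3 in each WT library, 84.1 in mre11 replicate 1 and 68.9 in mre11 replicate 2. Set against the mean of the other 5 subunits in the same library, the log2 CPM of MCM2 stood 1.62 and 1.48 higher in WT and 0.48 and 0.73 higher in mre11. The difference was -0.94, which restates that MCM2 had the smallest fold change of the 6 loci. The exact permutation test (two-sided) again gave p = 0.333, which any full separation of 2 against 2 libraries gives. Because this ratio is taken within a library, it does not depend on the scaling between libraries.

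**Figure D3:**
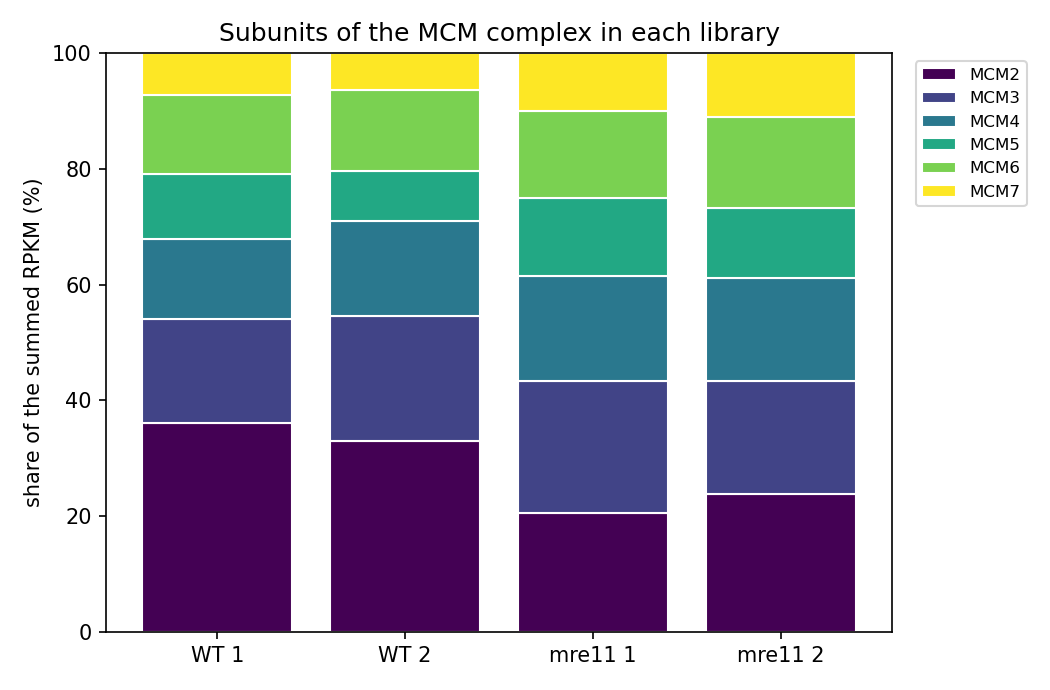
Share of each of the 6 long loci in their summed RPKM (%), as stacked bars for the 4 libraries. The share of MCM2 is 32.9% to 36.1% in WT and 20.6% to 23.8% in mre11, and that of MCM7 is 6.43% to 7.20% in WT and 9.99% to 11.1% in mre11.

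The factors that load the MCM ring were examined next, as the loci of the KEGG identifiers for ORC, CDC6 and CDT1. All 10 were tested, and 5 were called higher and 1 lower (12.0% and 9.31% over all tested genes). Their median log2 fold change was 1.15. Among the 6 ORC loci, 4 were higher. ORC6 (LOC_Os07g43540) had 44 and 37 counts in WT and 314 and 223 counts in mre11 (log2 fold change 2.21, adjusted p = 0.00341), and ORC3 (LOC_Os10g26280) had 36, 39, 230 and 150 counts (1.84, adjusted p = 0.00567). ORC1 (LOC_Os06g08790), the subunit that binds CDC6, rose by 1.32 on the log2 scale (adjusted p = 0.00587). ORC5 (LOC_Os03g55200) was at low counts, with 6 and 11 in WT and 47 and 34 in mre11 (1.78, adjusted p = 0.0268). It passed the count filter through the mre11 libraries.

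The 3 loci with the identifier of CDT1, which brings the MCM ring to ORC, did not move together. LOC_Os04g10650 had 44 and 45 counts in WT and 301 and 223 counts in mre11, a log2 fold change of 2.06 (SE 0.261, adjusted p = 0.00286). LOC_Os01g08880 fell, from 276 and 309 counts in WT to 212 and 129 counts in the deeper mre11 libraries (-1.28, SE 0.233, adjusted p = 0.00834). By its RPKM this locus is shorter than the other CDT1 loci. In WT replicate 1, its 276 counts gave 32.35 RPKM, against 5.52 RPKM from 216 counts at LOC_Os10g34820. Whether LOC_Os01g08880 encodes a full CDT1 was not examined. LOC_Os10g34820 had a log2 fold change of 0.84 and did not pass the test (adjusted p = 0.0605). The CDC6 locus (LOC_Os01g63710), which acts with ORC and CDT1 in loading the MCM ring, had 88, 114, 394 and 171 counts. It did not pass the test either (0.98, adjusted p = 0.0649). Its mre11 libraries were 19.0 and 9.72 CPM, against 7.39 and 7.25 CPM in WT.

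Of the 11 loci for CDC45, GINS, CDC7, MCM8, MCM9 and MCM10, 3 were called higher and 1 lower. Over all tested genes these shares were 12.0% and 9.31%. The median log2 fold change of the 11 loci was 0.27. Both CDC45 loci, which complete the active helicase, were higher. LOC_Os12g03130 had 10 counts in each WT library and 163 and 107 counts in mre11 (3.24, SE 0.381, adjusted p = 0.00233), and LOC_Os11g03430 had 7, 28, 174 and 115 counts (2.60, SE 0.497, adjusted p = 0.00973). LOC_Os11g03430 passed the count filter through the mre11 libraries. Whether the 2 CDC45 loci share reads was not examined, so the split between them is uncertain. GINS, the other partner of the active helicase, showed no call in either direction over its 4 loci, which lay between -0.88 and 0.80 on the log2 scale, around a median of -0.14. At any fold, 2 GINS loci had an adjusted p under 0.05, and both were lower in mre11, as were 18.3% of all tested genes.

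The MCM genes outside the ring also differed among themselves. MCM10, which helps the loaded helicase to start, has 2 loci, of which LOC_Os09g36820 rose from 14 and 10 counts to 107 and 78 counts (2.43, SE 0.429, adjusted p = 0.00761). The other, LOC_Os03g19980, had a log2 fold change of 0.16 (adjusted p = 0.744). MCM8 and MCM9 act in recombination repair in animals. MCM9 (LOC_Os06g11500) fell, with 67.5 and 69.0 CPM in WT and 30.1 and 22.1 CPM in mre11 (-1.38, SE 0.181, adjusted p = 0.00308). MCM8 (LOC_Os05g38850) had 0.79 and did not pass the test (adjusted p = 0.124).

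At the fork that the helicase opens, 52 of 70 loci could be tested. Of these, 14 were called higher and 2 lower (12.0% and 9.31% over all tested genes), and the median log2 fold change was 0.46. The identifier of RPA1, the large subunit of the protein that coats single-stranded DNA, alone covers 34 of the 70 loci, and 14 loci of the list had 0 counts in all libraries. Of the 18 tested RPA1 loci, 2 were called higher and 2 lower, shares near those of all tested genes. Without RPA1 the list has 34 tested loci, with 12 higher, 0 lower and a median of 0.82. Of the 4 loci of polymerase alpha and primase, 3 were called higher (median 1.52), and likewise 3 of 4 of polymerase epsilon (median 1.28), the polymerase that moves with the helicase. Its POLE2 locus LOC_Os05g06840 had 19 and 29 counts in WT and 294 and 152 counts in mre11 (2.72, adjusted p = 0.00313). Of the 5 tested loci of polymerase delta, 1 was called higher and 0 lower (median 0.65). Of the 9 loci of FEN1, LIG1, DNA2 and RNASEH2, 2 were called higher and 0 lower (median 0.46). The clamp PCNA and the clamp loader RFC had 2 of 9 called higher (median 0.35). PCNA (LOC_Os02g56130) had 370 and 438 counts in WT and 2130 and 1380 counts in mre11, a log2 fold change of 1.62. The RFC3/5 locus LOC_Os10g42400 had 6 counts in each WT library and 68 and 55 counts in mre11 (2.85, adjusted p = 0.00532). It was near the floor in WT and passed the count filter through the mre11 libraries. The other RFC3/5 loci were not called, at -0.68, -0.04, 0.35 and 0.60. At any fold, 4 of the 9 PCNA and RFC loci were higher at an adjusted p under 0.05 and 2 were lower. Over all tested genes these shares were 18.8% and 18.3%. Among the subunits of RPA, the RPA2 locus LOC_Os02g58220 rose by 2.17 on the log2 scale (adjusted p = 0.00151). The other RPA2 locus, LOC_Os02g42230, had a mean of 31.6 CPM in WT and 31.2 CPM in mre11 (-0.02, adjusted p = 0.937). The 2 RPA1 loci called lower were LOC_Os01g12340 (-1.44) and LOC_Os01g14770 (-1.01), whereas LOC_Os03g11540 rose from 89 and 122 counts to 1142 and 899 counts (2.80, adjusted p = 0.000763). Taking loaders, activators and fork proteins together, 22 of 73 tested loci were higher and 4 lower, against 5 and 0 of the 7 MCM loci. Whether the MCM loci differ from the other replication loci was not tested.

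**Figure D4:**
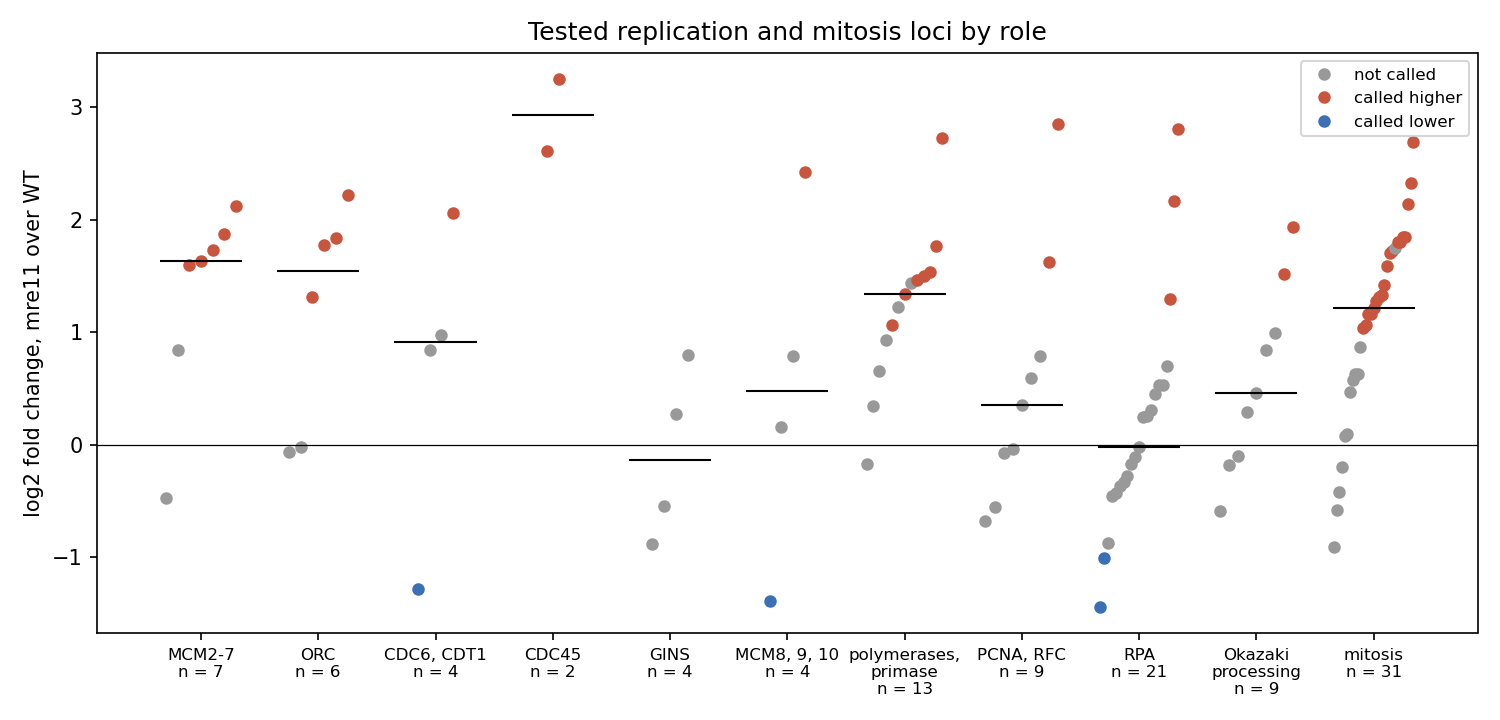
Log2 fold change, mre11 over WT, of each tested locus of the replication and mitosis lists, grouped by role, with called loci in red (higher) or blue (lower), others in grey and a bar at the median of each group. MCM2 to MCM7 (7 loci, median 1.63) and ORC (6 loci, median 1.55) lie mostly above a log2 fold change of 1, whereas the 4 GINS loci spread around 0.

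Genes of mitosis were examined beside the MCM loci. Of 43 loci for cyclins A and B, CDC20, MAD2, the kinesin KIF11, the NDC80 complex of the kinetochore and condensin, 31 were tested, 19 were called higher and 0 lower (12.0% and 9.31% over all tested genes) and 12 were not called, with a median log2 fold change of 1.22 (range -0.91 to 2.69), and 8 of the 43 were at 0 counts in every library. Their summed CPM was 409 and 430 in WT and 773 and 725 in mre11. The cyclin B locus LOC_Os05g41390, which drives entry into mitosis, had 40 and 93 counts in WT and 567 and 588 counts in mre11 (2.69, adjusted p = 0.00192). Another cyclin B locus, LOC_Os01g59120, rose from 113 and 215 counts to 1046 and 920 counts (2.14, adjusted p = 0.00152). LOC_Os04g47580 was also called higher (1.80, adjusted p = 0.00271). LOC_Os01g59130, with the highest CPM of the cyclin B loci, was not called, at 94.4 in WT and 82.3 in mre11 (-0.20, adjusted p = 0.268). The cyclin B locus LOC_Os05g42200 was not called either (-0.42, adjusted p = 0.203). The cyclin A locus LOC_Os01g13229 had 5 and 22 counts in WT and 103 and 80 counts in mre11 (2.33, SE 0.531, adjusted p = 0.0172). It passed the count filter through the mre11 libraries. MAD2 (LOC_Os04g40940), a protein of the spindle checkpoint, rose by 1.85 on the log2 scale (adjusted p = 0.00311). At any fold, 2 cyclin A loci had an adjusted p under 0.05 and were lower in mre11, LOC_Os12g20324 (-0.91, adjusted p = 0.0226) and LOC_Os05g14730 (-0.58, adjusted p = 0.0223). The summed CPM of the 6 long MCM loci was 80.6 and 77.8 in WT and 237 and 207 in mre11. The part of the number of dividing cells in the MCM difference was not tested.

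Genes of green tissue differed between libraries as well. Of 17 tested loci for light-harvesting proteins and the small subunit of Rubisco, 5 were called higher and 0 lower (12.0% and 9.31% over all tested genes), with a median log2 fold change of 0.88. Their summed CPM was 13479 and 22794 in WT and 23075 and 37837 in mre11, so that WT replicate 2 and mre11 replicate 1 were nearly equal. The part of green tissue in the MCM difference was not tested.

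The genes whose pattern was most like that of the MCM loci were searched among 21218 genes, by the distance of their centred log2 CPM over the 4 libraries from the median profile of the loci. With 2 genotypes, this mostly finds genes with a similar fold change. The 5 nearest were a pyruvate kinase locus (LOC_Os12g05110, log2 fold change 1.68), LOC_Os03g58764 without an identifier (1.63), a pectinesterase locus (LOC_Os04g46740, 1.71), a phosphate transporter locus (LOC_Os10g30790, 1.67) and a locus of the microtubule end-binding EB1 family (LOC_Os04g54940, 1.63). Genes listed next to the MCM loci on the chromosome gave 9 tested gene models of 14. Of these, 1 was called higher and 0 lower, a share near the 12.0% of all tested genes called higher. The 1 was LOC_Os05g39860, beside the long MCM3 locus. LOC_Os05g39860 had 3 and 9 counts in WT and 45 and 47 in mre11, so it passed the count filter through the mre11 libraries.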

How the data were processed

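RNA-seq was done on 7-day-old WT and mre11 seedlings, with 4 libraries in all. Reads were mapped by the authors against the rice pseudomolecules of version 7.0 and counted with HTSeq 0.6.1, and per the labels DESeq2 1.6.3 was also used. The aligner and the strand setting are not given in the sources used here, so overlapping, antisense and near-identical genes are uncertain. The deposited counts per gene are not normalized. The deposited RPKM are the authors' counts divided by library total and by a length shorter than the listed one, and served for levels between genes and as an alternative. A second joint table holds the authors' own fold changes and p-values, which were not used.

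The counts were filtered with filterByExpr, scaled by TMM and tested with edgeR 4.0.16 (quasi-likelihood, genotype only, Benjamini-Hochberg) in R 4.3.3. On simulated data the test was checked for recovery of known changes. The simulation used changes of a fixed size and the same relative spread for all genes, so it does not give the recovery in these data. Loci of other replication, mitosis and green tissue genes were taken by KEGG identifier, and the names of identifiers are those of KEGG. Named were all 7 members, OsMre11, all loci of CDC6, CDT1, ORC5, CDC45 and MCM8 to MCM10, and the 5 genes with the nearest profile. Of each replication and mitosis list, up to 4 called loci in each direction were named. These had the largest fold change and a mean log2 CPM of at least 1. Beside these, PCNA, LOC_Os05g39860, the 2 cyclin A loci lower at any fold, and further loci of RPA2, RFC3/5 and cyclin B were given. The latter loci, from PCNA on, were chosen after their values were seen. The lists, like the members, were chosen with earlier results of these data known. Alternatives were DESeq2 1.42.0, limma 3.58.1 on log2(RPKM + 1) and log2(RPKM + 0.1), 3 scalings, other filters and thresholds, thinned counts, a replicate block and leaving out each library.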

Additional observations from a re-analysis of the deposited data

How the results depend on the processing

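Of the 7 MCM loci, 5 were called higher under every alternative except scaling by library size alone and the omission of the fold threshold, which each gave 6 by adding MCM2, and none of the alternatives reversed a direction. With 1 library left out, 5 were called higher each time and 0 to 1 lower, the 1 being the short MCM3 locus without mre11 replicate 1. The median log2 fold change of the 7 loci ran from 1.57 to 1.78 with 1 library left out and from 1.56 to 1.80 under the other alternatives, and OsMre11 from -2.21 to -1.98 with 1 library left out. Over all tested genes, the deviations of same-numbered libraries correlated at -0.0035, which does not exclude pairing in a group of genes. By summed CPM, the green tissue loci were higher in replicate 2 than in replicate 1 of both genotypes. With the replicate block, 5 MCM loci were called higher and 0 lower, 20 and 4 of the other replication loci, and 2736 and 2231 of all genes. Over all genes, 2930 were called higher and 2277 lower, against 2841 and 1336 with limma on log2(RPKM + 1) and 3728 and 1702 on log2(RPKM + 0.1). With no fold threshold 4594 were called higher and 4483 lower, and 10 of the other replication loci lower. At an adjusted p under 0.01, 1614 were higher and 1493 lower. With 1 library left out, 1668 to 2626 genes were called higher and 1493 to 2275 lower, and 19 to 24 of the other replication loci higher and 2 to 5 lower. The median log2 fold change of all genes was 0.03 after TMM and 0.19 by library size alone, where 3795 genes were called higher and 1711 lower, and 0.11 after upper-quartile scaling, with 3325 and 1935. The cause of these changes was not tested. Low counts limit ORC5, CDC45, MCM10, the RFC3/5 locus LOC_Os10g42400, the cyclin A locus LOC_Os01g13229 and LOC_Os05g39860. Loci this low in WT can pass the count filter through the mre11 libraries alone. Having 2 libraries per genotype limits every interval given.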
